A study of Mus musculus with 4 samples.

Results

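The replication-dependent histone genes are the multicopy genes that supply the linker histone H1 and the core histones H2A, H2B, H3 and H4 to newly copied DNA. They were taken by symbol, as every gene of the bulk count table whose name begins with Hist1h, Hist2h, Hist3h or Hist4h. This gave 70 of the 55602 genes in the table, with 6 genes for H1, 20 for H2A, 19 for H2B, 12 for H3 and 13 for H4. Of these, 56 belonged to Hist1 on chromosome 13, 10 to Hist2 on chromosome 3, 3 to Hist3 on chromosome 11 and 1 to Hist4 on chromosome 6.

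RNA was measured in cells of JB1, a male hybrid embryonic stem cell (ESC) line from a JF1 mother and a C57BL/6 (B6) father, at day 12 of neural differentiation in a defined default medium. Wild-type cells were compared with a Zfp57-/- line derived from JB1. Zfp57 encodes a zinc finger protein that keeps the methylation imprint at imprinting control regions. All cultures had been kept as ESCs with 3 µM CHIR99021, a Gsk3 inhibitor, and all received 1 µM cyclopamine, which blocks sonic hedgehog signalling, from day 2 to day 10. There were 2 replicate cultures per genotype and 1 line of each genotype, so that a difference between genotypes cannot be told apart from a difference between these lines, and the p-values measure only the spread between these cultures. The stranded libraries were made from total RNA depleted of ribosomal RNA. The method therefore does not select poly(A) tails.

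Histone genes of this kind are transcribed mainly in S phase. Most of their mRNAs end in a short stem-loop in place of a poly(A) tail, bound by the stem-loop binding protein and cut with the help of the U7 small nuclear RNA. Many copies encode nearly or fully identical proteins, and H2A and H2B genes are often arranged head to head on a shared promoter region. In differentiating neural cells, the supply of these mRNAs is known to follow the fraction of cells that replicate DNA.

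Of the 4 libraries, which held from 7663520 to 10337082 bulk counts and from 2837013 to 3826604 allelic counts, wild-type replicate 1 was the shallowest, and its difference from wild-type replicate 2 varied with gene length. The median log2 ratio of replicate 2 over replicate 1 was 0.17 for 264 genes with up to 750 exonic bases, 0.41 for 715 genes up to 1500 bases, 0.31 for 2702 genes up to 3000 bases, 0.16 for 5192 genes up to 6000 bases and -0.10 for 4325 longer genes. Zfp57 itself was at 48.5 and 23.8 CPM (counts-per-million, with libraries scaled by edgeR's TMM method) in wild-type replicates 1 and 2 and at 17.0 and 14.7 CPM in the Zfp57-/- replicates. It fell by 1.19 ± 0.32 (SE) on the log2 scale (edgeR adjusted p = 0.022). Which part of the gene is deleted is not given in the sources used here, so these counts check the label only in part. The cultures also differed in their cell type markers. The 7 neural markers summed to 1607 and 1906 CPM in wild-type and to 303 and 286 CPM in Zfp57-/- cells, whereas the 6 pluripotency markers summed to 3.71 and 7.26 CPM and to 1145 and 1000 CPM. Of the neural markers 6 of 7 were lower and of the pluripotency markers 6 of 6 were higher in Zfp57-/- cells, while none of 5 endoderm markers passed the threshold and their sums were 208 and 463 CPM against 426 and 583 CPM. In bulk RNA, fewer cells of a type and less RNA per cell cannot be told apart, and the part of these differences in the results for histone genes was not tested.

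Most of the transcripts carried the element that sets this gene family apart. Whole transcripts of GENCODE vM21 were searched for a stem-loop with the letters of the histone consensus. It was found in 46 of the 70 members, against 113 of 21834 other protein-coding genes (0.52%). All 46 were among the 56 members with an annotated untranslated region. Of the other 14 members, 11 ended at the stop codon in the annotation, and 3 (Hist3h2bb-ps, Hist1h2aj and Hist1h2al) were annotated as pseudogenes, without a coding sequence. The forms of the stem-loop are shown here for members that the results below turn on, in DNA letters 5′ to 3′, with the paired stem and its 4-base loop in capitals.
Hist1h3a: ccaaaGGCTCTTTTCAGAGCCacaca
Hist1h2bj: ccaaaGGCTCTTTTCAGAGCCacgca
Hist3h2ba: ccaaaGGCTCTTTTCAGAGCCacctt
Hist1h3c: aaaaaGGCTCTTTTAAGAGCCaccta
Hist1h1t: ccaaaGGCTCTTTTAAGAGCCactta
Hist2h2ac: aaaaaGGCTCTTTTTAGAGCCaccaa
Hist1h4m: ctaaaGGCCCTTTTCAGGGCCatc
The core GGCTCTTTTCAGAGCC was present in 26 members, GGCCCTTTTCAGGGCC in 7 and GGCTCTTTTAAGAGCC in 6. The annotated transcript ran on past the stem-loop for 37 bases in Hist1h3a but for 840 bases in Hist1h1c, 1643 bases in Hist3h2a and 4884 bases in Hist1h1d.

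Promoter sequences from RefSeq (GRCm38.p6) were matched for 61 of the 70 members. In the 250 bases before the start, on either strand, TATAAA (the TATA box) was present in 45.9% of these members and in 12.4% of 32851 promoters of all genes, CCAAT in 82.0% and 33.8%, and ATTTGCAT (the octamer of H2B promoters) in 21.3% and 1.6%. TGCCGC, a form of the hexamer that ZFP57 binds when methylated, was present in 3.28% of member promoters and in 8.68% of all promoters. The form that begins with G, GGCCGC, was not searched. The 150 bases before the start are shown for 4 members that the comparison of genotypes turns on, with the CCAAT box, the TATA box and the octamer, read on either strand, in capitals. They are given on the gene's strand and lie, in the order shown, at chr13:23695661-23695810 (plus), chr13:23745522-23745671 (minus), chr13:22043048-22043197 (plus) and chr11:58948761-58948910 (plus).
Hist1h1t: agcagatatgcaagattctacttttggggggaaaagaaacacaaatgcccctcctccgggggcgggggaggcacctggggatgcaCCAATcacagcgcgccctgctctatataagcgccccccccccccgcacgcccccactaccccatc
Hist1h3c: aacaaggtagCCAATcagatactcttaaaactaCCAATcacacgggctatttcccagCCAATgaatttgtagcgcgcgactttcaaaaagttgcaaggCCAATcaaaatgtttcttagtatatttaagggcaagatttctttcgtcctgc
Hist1h2bj: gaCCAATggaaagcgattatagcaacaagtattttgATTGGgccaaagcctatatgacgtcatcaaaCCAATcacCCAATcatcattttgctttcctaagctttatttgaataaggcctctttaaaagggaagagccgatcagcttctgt
Hist3h2ba: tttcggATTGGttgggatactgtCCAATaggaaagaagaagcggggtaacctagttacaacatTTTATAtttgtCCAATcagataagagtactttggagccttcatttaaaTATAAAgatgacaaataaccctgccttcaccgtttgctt
A match is a description of the letters and not of a bound site.

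Histone transcripts were abundant in all 4 libraries, and in uniquely aligned counts H4 and H1 genes stood at the top per annotated length. Levels per length are given as RPKM, which are CPM per kilobase of exon, as the mean of the 4 libraries. The 3 highest H4 genes were Hist1h4k at 649 RPKM, Hist1h4h at 641 RPKM and Hist1h4d at 616 RPKM, and these did not differ beyond their spread, since Hist1h4k alone ranged from 389 to 823 RPKM between the wild-type libraries. The median over 13 H4 genes was 278 RPKM and over 6 H1 genes 276 RPKM, against 200 for 11 H3 genes, 106 for 19 H2B genes and 37.3 for 18 H2A genes. These medians do not rank the classes by abundance of transcripts. Reads shared between copies were dropped, and the share of unique sequence differed widely between members, as given below. Annotated lengths differed too, with 312 bases for Hist1h4k and 7425 bases for Hist1h1d.

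In the H1 class the means were 548 RPKM for Hist1h1a, 326 RPKM for Hist1h1b and 300 RPKM for Hist1h1e, an order found in the Zfp57-/- libraries only. In wild-type replicate 1 Hist1h1a (234 RPKM) and Hist1h1e (230 RPKM) were level above Hist1h1b (186 RPKM), and in replicate 2 Hist1h1e (381 RPKM) was slightly above Hist1h1b (367 RPKM). The leading H2A genes were Hist1h2ai at 250 and Hist1h2ak at 200 RPKM, followed by the processed pseudogene Hist1h2al at 150 RPKM. For H2B they were Hist1h2bl at 425, Hist1h2bb at 242 and Hist1h2bg at 234 RPKM, and the latter pair lay within the spread of each other. In the H3 class Hist1h3e reached 389 RPKM, whereas Hist1h3b at 253 and Hist1h3i at 251 RPKM could not be ordered. Of all histone counts, 30.9% fell on only 5 genes, Hist1h4d, Hist1h1e, Hist1h1a, Hist1h1c and Hist1h4c. At the other end, Hist2h2aa1 and Hist2h3c1 held 0 counts in every library and Hist1h2ao held 1, 1, 5 and 0 counts, so that 67 members passed the filter of more than 8 counts over the 4 libraries. Exons of Gm20634 on the same strand share 529 of the 586 bases of Hist2h2aa1 and all 1825 bases of Hist2h3c1. The 0 counts of these genes therefore need not mean a lack of transcripts, and the part of the overlap was not tested.

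**Figure D1:**
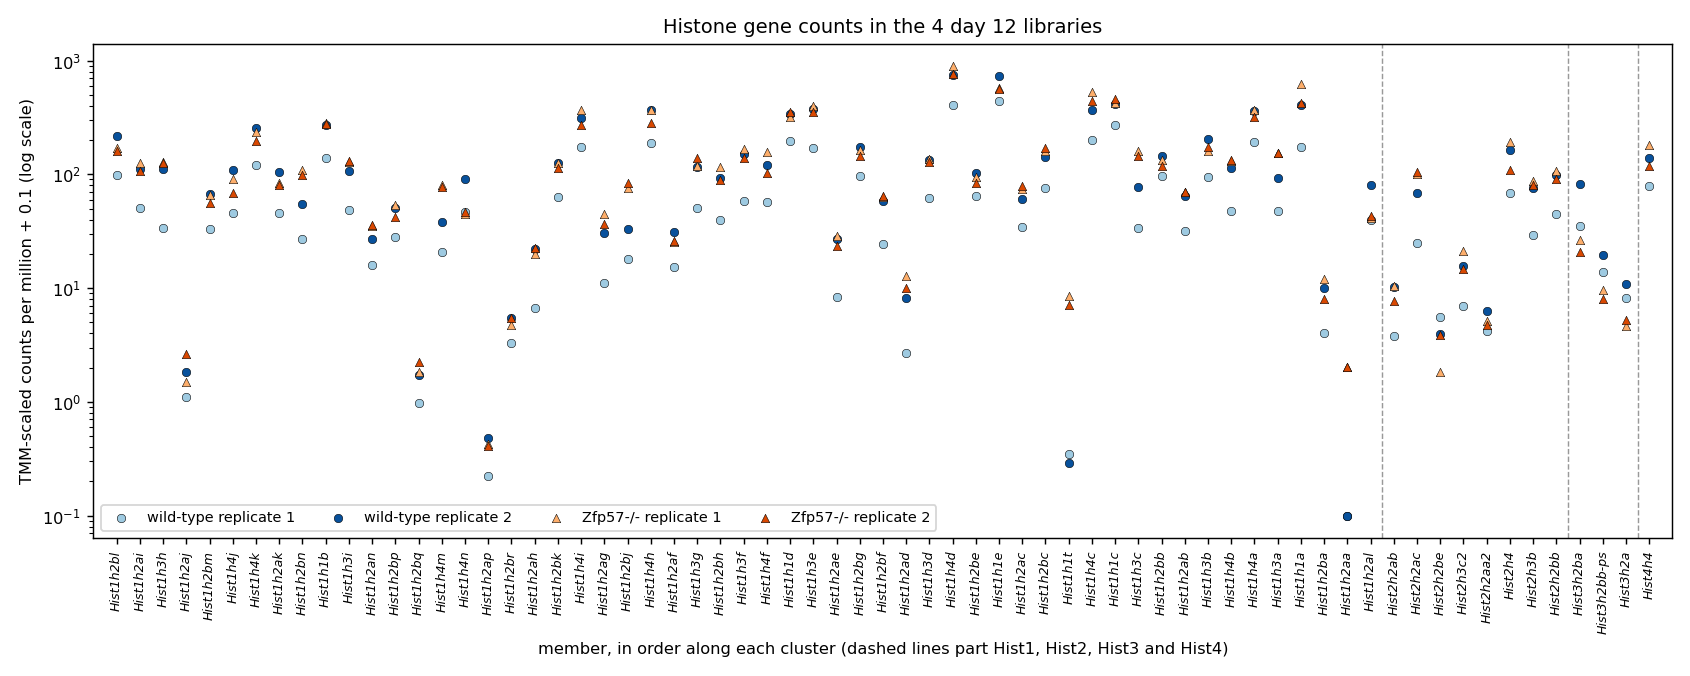
Counts of the 67 histone genes that passed the count filter, in CPM plus 0.1 on a log axis, in order along the 4 clusters, with a point for each library. For most members wild-type replicate 1 (light circles) is the lowest point, and Hist1h1t and Hist1h2aa are the only members with both wild-type libraries under 0.5 CPM and both Zfp57-/- libraries above 1.9 CPM.

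Summed over the 70 members, histone RNA differed more between the wild-type replicates than between the genotypes. The sum was 4572 CPM in wild-type replicate 1 and 8959 CPM in wild-type replicate 2, against 9684 and 8611 CPM in the Zfp57-/- replicates. Wild-type replicate 2 thus lay between the Zfp57-/- libraries, and only wild-type replicate 1 lay below them. The mean was 6765 ± 3102 (SD, n = 2) in wild-type and 9148 ± 758 CPM (SD, n = 2) in Zfp57-/- cells, a fold of 1.35, which was 1.02 without wild-type replicate 1.

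The gap between the wild-type replicates ran through every class. Wild-type replicate 2 was above replicate 1 by 1.77 times for H1, 2.19 times for H2A, 1.92 times for H2B, 2.30 times for H3 and 1.94 times for H4. Wild-type replicate 1 was the lowest of the 4 libraries for 60 of 67 members, against 31.2% of all genes tested. Without that library the fold between genotypes was 0.99 for H1, 1.01 for H2A, 0.97 for H2B, 1.11 for H3 and 1.03 for H4. The share of H3 in histone CPM was 13.9% and 16.3% in wild-type replicates 1 and 2 and 17.1% and 18.4% in the Zfp57-/- replicates, whereas that of H1 was 26.8% and 24.2% against 22.9% and 24.2%, and that of H4 35.9% and 35.6% against 37.5% and 33.9%. The cluster Hist3 was the exception in direction, with sums of 57.0 and 112 CPM in wild-type and of 40.1 and 33.8 CPM in Zfp57-/- cells.

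**Figure D2:**
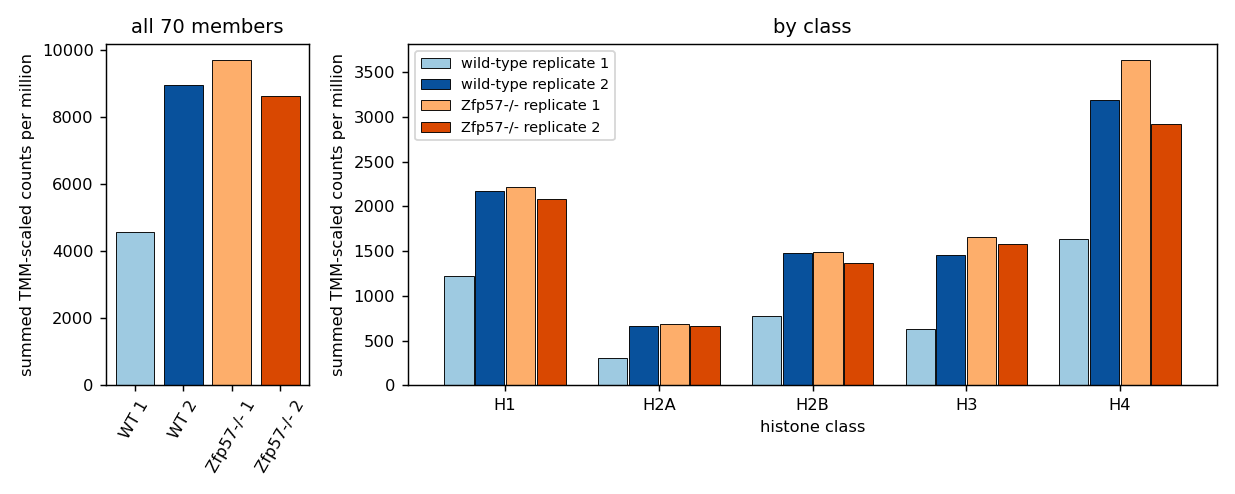
Summed CPM of all 70 histone genes (left) and by histone class (right), with a bar for each library and axes that start at 0. In each class wild-type replicate 1 is the shortest bar, and wild-type replicate 2 stands close to both Zfp57-/- libraries.

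Between genotypes, 10 of the 67 histone genes tested differed past the threshold (adjusted p under 0.05, edgeR with Benjamini-Hochberg adjustment over all genes), 8 of them higher and 2 lower in Zfp57-/- cells. Of the 8, Hist1h1t and Hist1h2aa passed the count filter only through the Zfp57-/- libraries, so that they had to differ. The other 57 did not pass. The share of 14.9% lay below the 27.6% of all 19995 genes that were called, of which 13% were called upward and 14.6% downward. On the log2 scale the members had a median difference of 0.46 against -0.01 over all genes tested, and 59 members had a positive and 8 a negative value. Because wild-type replicate 1 was low for nearly all of them, this shift rests on that library, and without it the median was -0.003.

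By class, the calls were spread thinly. They comprised 1 of 6 H1 genes, 2 of 18 H2A genes, 4 of 19 H2B genes, 2 of 11 H3 genes and 1 of 13 H4 genes. Of the clusters, Hist1 held 7 called genes of 55, Hist2 held 1 of 8, Hist3 held 2 of 3 and Hist4 held 0 of 1. The libraries of the genotypes did not overlap for 26 members that were higher and 5 that were lower in Zfp57-/- cells, where 66.3% of all genes did not overlap. With wild-type replicate 1 left out, 20 members were called (10 higher, 10 lower) beside 39.6% of all genes, and with wild-type replicate 2 left out, 58 were called (56 higher, 2 lower) beside 50% of all genes. Of the 8 called members other than Hist1h1t and Hist1h2aa, 7 were called in each of the 4 fits that left out 1 library, and Hist3h2bb-ps was called in 2 of them.

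**Figure D3:**
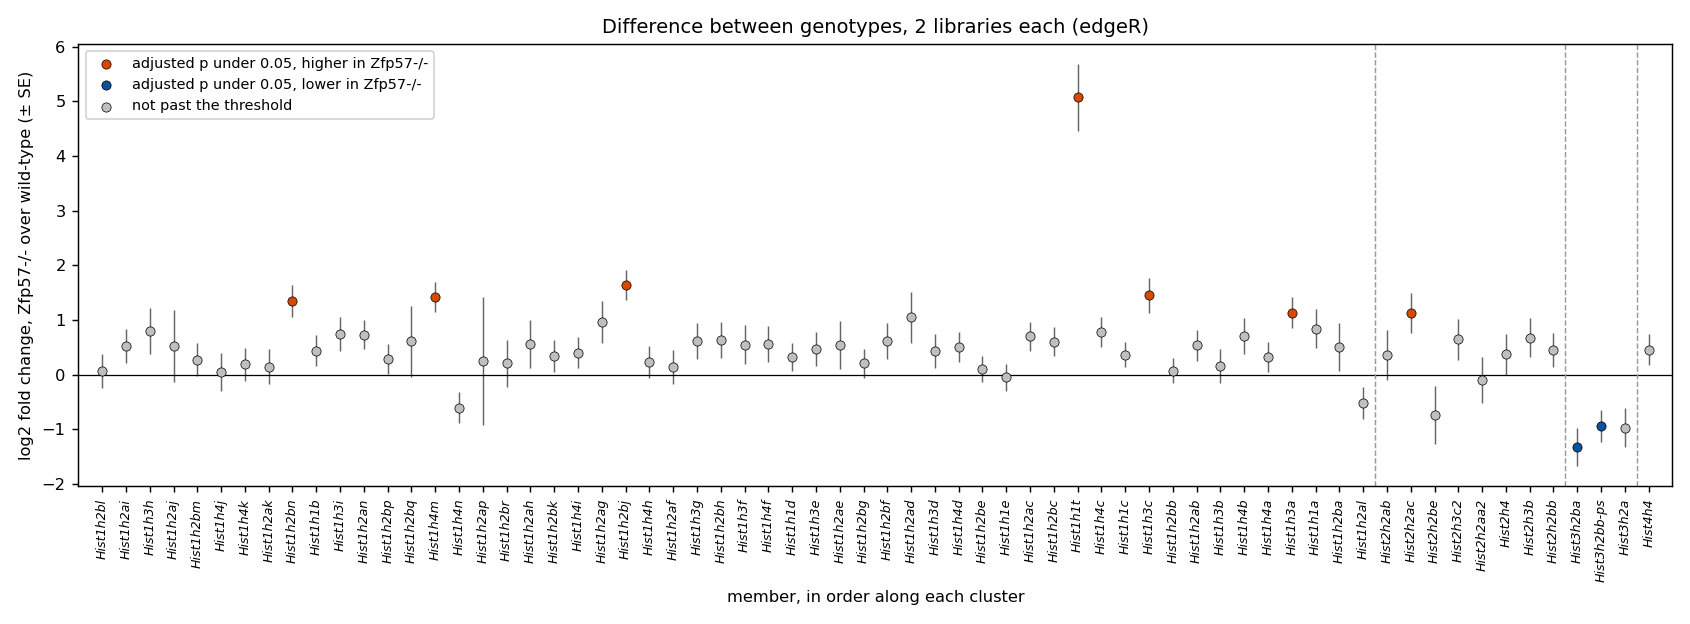
Log2 fold change of Zfp57-/- over wild-type cells with its SE for 66 histone genes in order along the clusters, from edgeR with 2 libraries per genotype. Hist1h2aa is not drawn, since its wild-type libraries held 0 counts. Most grey points lie a little above 0, Hist1h1t stands at 5.07, and all 3 Hist3 genes lie below 0.

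Among the members known from the male germ line, 2 of 3 were at or near 0 counts in wild-type cells. They passed the count filter through the Zfp57-/- libraries alone, and their values are therefore given as a description. Hist1h1t, the testis-specific linker histone, had 2 and 2 counts in the wild-type libraries and 79 and 68 counts in the Zfp57-/- libraries, or 0.248 and 0.191 CPM against 8.48 and 6.95 CPM. The ratio of the summed counts, scaled for library size, was 35.7, with a counting interval of 13.6 to 133. Hist1h2aa, a testis H2A, had 0 counts in both wild-type libraries and 18 and 19 counts in the Zfp57-/- libraries. Against a floor of 3 counts per library it was at least 5.89-fold higher. All transcript windows of both genes were unique in the transcriptome. Hist1h2ba, the testis H2B that faces Hist1h2aa, was measured in both genotypes, at 3.96 and 9.93 CPM in wild-type and 11.9 and 7.97 CPM in Zfp57-/- cells. These ranges overlapped (edgeR adjusted p = 0.44).

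Most core histone genes of Hist1 did not pass the threshold. Over the 55 tested Hist1 members the median log2 fold change was 0.52, with 48 not called, and 5 core genes rose, by 1.13 to 1.63 on the log2 scale. Hist1h2bj, an H2B gene, was at 17.8 and 33.1 CPM in wild-type and at 75.9 and 83.0 CPM in Zfp57-/- cells, a rise of 1.63 ± 0.28 on the log2 scale (SE, edgeR adjusted p = 0.0021). For Hist1h3c, an H3 gene, the values were 33.7 and 77.0 CPM against 159 and 144 CPM (1.45 ± 0.33 on the log2 scale, edgeR adjusted p = 0.0093). In both genes the Zfp57-/- libraries lay above the higher wild-type library by more than the gap between the Zfp57-/- libraries. Hist1h2bn, an H2B gene, was at 26.7 and 54.5 against 109 and 98.6 CPM (log2 1.35 ± 0.30, edgeR adjusted p = 0.0084). This rise was not found in the allelic reads of both alleles summed (log2 0.26, edgeR adjusted p = 0.56), an alternative chosen after seeing the data, and its allelic reads per bulk count were 0.903 and 0.888 in wild-type against 0.418 and 0.421 in Zfp57-/- libraries. Hist1h3a, an H3 gene, was at 47.7 and 92.4 against 155 and 153 CPM (log2 1.13 ± 0.28, edgeR adjusted p = 0.015). The H4 gene Hist1h4m was at 20.6 and 38.0 against 80.4 and 76.5 CPM (log2 1.41 ± 0.27, edgeR adjusted p = 0.0043), but only 12.9% of its windows were unique. It shares windows with Hist1h4i and Hist1h4n. Hist1h4n, with 20.9% unique windows, went the other way without passing, at 46.7 and 90.8 against 44.3 and 46.2 CPM (log2 -0.61 ± 0.28, edgeR adjusted p = 0.14). How reads were divided between these copies was not tested. Outside Hist1, Hist2h2ac, an H2A gene, was at 24.9 and 68.4 against 99.8 and 105 CPM and passed narrowly (log2 1.13 ± 0.37, edgeR adjusted p = 0.047).

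All of these 6 core histone calls were lost when Actb was used as the scale, a choice that moved the median of all genes to -0.68, and those of Hist1h3a and Hist2h2ac were also lost with a correction for gene length. The call of Hist2h2ac was lost as well with a filter of at least 10 counts in at least 2 libraries. With the summed allelic reads 3 of the 6 were lost, namely Hist1h2bn, Hist2h2ac (log2 0.86, edgeR adjusted p = 0.22) and Hist1h4m (log2 2.10, edgeR adjusted p = 0.18), which had only 1, 2, 6 and 8 allelic reads. Hist3h2ba, which could not be tested in the allelic reads, was called under each of the 12 other alternatives.

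In Hist3, a small cluster apart from the main ones, all 3 genes had negative log2 fold changes, and 2 of them were called. Hist3h2ba, its H2B gene, was at 35.2 and 81.9 CPM in wild-type and at 26.2 and 20.7 CPM in Zfp57-/- cells, where the Zfp57-/- libraries lay below both others. It fell by 1.32 ± 0.35 (SE) on the log2 scale (edgeR adjusted p = 0.020). Hist3h2bb-ps, annotated as a pseudogene, was at 13.7 and 19.5 against 9.45 and 7.97 CPM (log2 -0.93 ± 0.29, edgeR adjusted p = 0.040). The call of Hist3h2bb-ps was lost with the DESeq2 Wald test and with Actb as the scale. Hist3h2a, the H2A gene beside it, was at 8.05 and 10.8 against 4.51 and 5.11 CPM and did not pass (log2 -0.97 ± 0.35, edgeR adjusted p = 0.067). Its exons share 708 bases on the same strand with Trim17. Every Hist3 gene was therefore below both wild-type libraries in both Zfp57-/- libraries, while wild-type replicate 2 exceeded replicate 1 here too.

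The other Hist2 and Hist4 genes overlapped between genotypes or missed the threshold. Hist2h2be, an H2B gene with a long polyadenylated form, was at 5.45 and 3.82 CPM in wild-type and at 1.72 and 3.78 CPM in Zfp57-/- cells (log2 -0.74 ± 0.53). Hist2h2bb was at 45.1 and 98.4 against 106 and 90.5 CPM, Hist2h3b at 29.2 and 75.1 against 87.1 and 80.2 CPM, and Hist2h4 at 68.7 and 165 against 192 and 109 CPM. Only Hist2h3b had both Zfp57-/- values above both wild-type values. Lower levels were found for Hist2h2ab, at 3.71 and 10.0 against 10.3 and 7.56 CPM, and for Hist2h3c2, at 6.81 and 15.7 against 20.9 and 14.5 CPM. Hist2h2aa2, none of whose windows were unique, was at 4.09 and 6.21 against 5.04 and 4.60 CPM. Hist4h4, which lies alone on chromosome 6, was at 78.9 and 138 against 179 and 119 CPM (log2 0.46 ± 0.29, edgeR adjusted p = 0.27).

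Of the somatic linker histones none passed the threshold, although they include 3 of the 5 genes with the most histone counts. Hist1h1a was at 173 and 408 CPM in wild-type and at 618 and 423 CPM in Zfp57-/- cells, so that each Zfp57-/- library was above each wild-type library (log2 0.84 ± 0.35, edgeR adjusted p = 0.11). Hist1h1c, the replacement-like linker histone of many differentiated cells, was at 271 and 415 against 423 and 461 CPM (log2 0.36 ± 0.23, edgeR adjusted p = 0.27). Hist1h1b was at 138 and 273 against 280 and 277 CPM, and Hist1h1d at 197 and 338 against 316 and 351 CPM. The values of Hist1h1b in wild-type replicate 2 and in the Zfp57-/- libraries were nearly equal, and those of Hist1h1d overlapped. Hist1h1e, which was at 443 and 735 against 572 and 564 CPM, had no direction (log2 -0.05 ± 0.25). Its exons share 450 bases on the same strand with Hist1h2be.

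Members that are also known as polyadenylated mRNAs in differentiated tissue, Hist1h1c, Hist1h2bc, Hist2h2be, Hist3h2a and Hist4h4, held 0 calls of 5. Their summed level was 440 and 709 CPM in wild-type and 769 and 759 CPM in Zfp57-/- cells, and replicate 2 of the wild-type was 1.61 times replicate 1, against 1.96 times for all members. Hist1h2bc was at 76.3 and 141 against 161 and 170 CPM (log2 0.60 ± 0.27, edgeR adjusted p = 0.13).

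Head-to-head pairs of H2A and H2B genes mostly had log2 fold changes of the same sign but did not always share a call. From the coordinates, 14 pairs on opposite strands had annotated starts 172 to 305 bases apart (median 246), and in 13 pairs both genes could be tested. For members annotated as coding sequence only, the annotated start is the start codon, so that transcription starts lie closer together. The sign was the same for 12 of the 13 pairs. Since 59 of the 67 tested members had a positive value, most pairs would share a sign in any arrangement. The call was the same for 8 pairs, all of them without a call for either gene, and differed for 5. Hist1h2bn rose in the bulk counts, though not in the summed allelic reads. Hist1h2ak, whose annotated start is 295 bases away, was at 45.4 and 104 CPM in wild-type and at 84.2 and 80.4 CPM in Zfp57-/- cells (log2 0.14 ± 0.32). Both are annotated as coding sequence only, and their RefSeq starts are at chr13:21754076 (Hist1h2bn) and chr13:21753912 (Hist1h2ak). Hist1h2ag, the partner of Hist1h2bj, was at 10.9 and 30.5 against 44.5 and 36.8 CPM, so that both partners were higher in each Zfp57-/- library but only Hist1h2bj passed (Hist1h2ag log2 0.96 ± 0.38, edgeR adjusted p = 0.090). In the remaining pairs, Hist1h2aa passed and Hist1h2ba did not, Hist2h2ac was higher while Hist2h2be had a negative value, and Hist3h2bb-ps passed while Hist3h2a, with nearly the same log2 fold change, did not. A difference in call is not a test of the difference between the partners, which was not made.

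Other genes of histone supply were read from the same fit, in which the median log2 fold change was 0.66 for S-phase genes, 0.34 for processing factors, 0.32 for chaperones, -0.23 for replication-independent variants and 1.02 for non-coding RNAs, against -0.01 for all genes. S-phase genes, which are expressed when histone mRNA is made, had 11 of 22 members higher and 0 lower, beside 13% of all genes called higher and 14.6% called lower, with sums of 1690 and 2456 CPM in wild-type and 3391 and 3371 CPM in Zfp57-/- cells. The replicative helicase genes Mcm3 (117 and 163 against 383 and 367 CPM) and Mcm6 (168 and 244 against 466 and 463 CPM) and the initiation factor Cdc6 (33.3 and 43.7 against 77.5 and 87.5 CPM) rose, as did the cyclin gene Ccne1 (14.4 and 28.2 against 69.2 and 71.7 CPM). Here both Zfp57-/- libraries were above both wild-type libraries, unlike in the histone sum. The number called fell when either Zfp57-/- replicate was left out and rose without wild-type replicate 2, as did the number over all genes. With Actb as the scale 0 of the 22 were called, and the calls in all 5 lists were 1 in place of 21. That scale called 486 of 19995 genes higher and 2994 lower. The 4 proliferation markers summed to 1500 and 1600 CPM in wild-type and to 1501 and 1483 CPM in Zfp57-/- cells, with 2 of 4 higher.

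Factors that make histone mRNA showed 1 call among 13 genes, beside 27.6% of all genes. Zfp473, a component of the 3′ end processing complex, was at 6.93 and 6.68 CPM in wild-type and at 15.7 and 19.8 CPM in Zfp57-/- cells (log2 1.38 ± 0.28, edgeR adjusted p = 0.0057). Its partner Lsm11, a U7 ring protein, was at 19.4 and 22.5 against 15.7 and 10.6 CPM and did not pass, and neither did Coil (26.6 and 32.1 against 47.3 and 41.4 CPM) or Upf1 (86.6 and 114 against 137 and 156 CPM). The stem-loop binding protein gene Slbp, named here after its values were seen, was at 71.6 and 84.5 against 104 and 96.8 CPM (edgeR adjusted p = 0.19).

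Histone chaperones and carriers showed 4 of 17 higher and 0 lower, where 13% of all genes were called higher, namely Hat1, which acetylates new H4 (74.5 and 96.6 against 188 and 180 CPM), the chromatin assembly factor subunit Chaf1b (27.4 and 39.4 against 59.2 and 59.2 CPM), Daxx, a chaperone of H3.3 variants (22.7 and 36.2 against 57.2 and 49.8 CPM), and Tonsl (16.7 and 16.9 against 26 and 28.1 CPM). Replication-independent variants showed 1 higher and 1 lower of 11, beside 13% of all genes called higher and 14.6% called lower. H2afz, the gene of variant H2A.Z, was at 189 and 309 against 536 and 543 CPM (log2 1.11 ± 0.24), and H2afy2, a macroH2A gene, was at 90.1 and 156 against 41.5 and 52.0 CPM (log2 -1.40 ± 0.27). Non-coding RNAs that also lack a poly(A) tail had 3 of 6 tested higher, beside the same 13% of all genes. These were the telomerase RNA Terc (5.57 and 5.44 against 35.3 and 16.4 CPM), Rn7s1 and Rpph1. The summed level of the listed non-coding RNAs hardly differed between the wild-type replicates (0.96 times), whereas that of the replication-independent variants did so by 1.57 times. Nearly all of the non-coding sum, at 18421 and 17728 against 18096 and 14856 CPM, came from Rn7sk, at 18277 and 17624 against 17888 and 14712 CPM. It therefore says little of the other non-coding RNAs.

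The hybrid genome allowed the maternal JF1 and the paternal B6 transcripts of histone genes to be counted apart, where a read covered a base that differs between the strains. Of the 70 members 60 had at least 1 allelic read, and 47 had at least 10 in both wild-type libraries and were tested for a genotype-by-allele difference with edgeR. Of these 13 were called (27.7%), against 14.3% of all 11079 autosomal genes, and in all 13 the maternal share was smaller in Zfp57-/- cells, a direction called for 10.2% of all genes. Over the 46 members that reached 10 allelic reads in each of the 4 libraries, the median maternal share was 0.567 in wild-type cells against 0.509 in Zfp57-/- cells. Maternal reads made up 52.5% and 52.6% of all autosomal allelic reads in the wild-type libraries against 50.6% and 50.5% in the Zfp57-/- libraries.

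**Figure D4:**
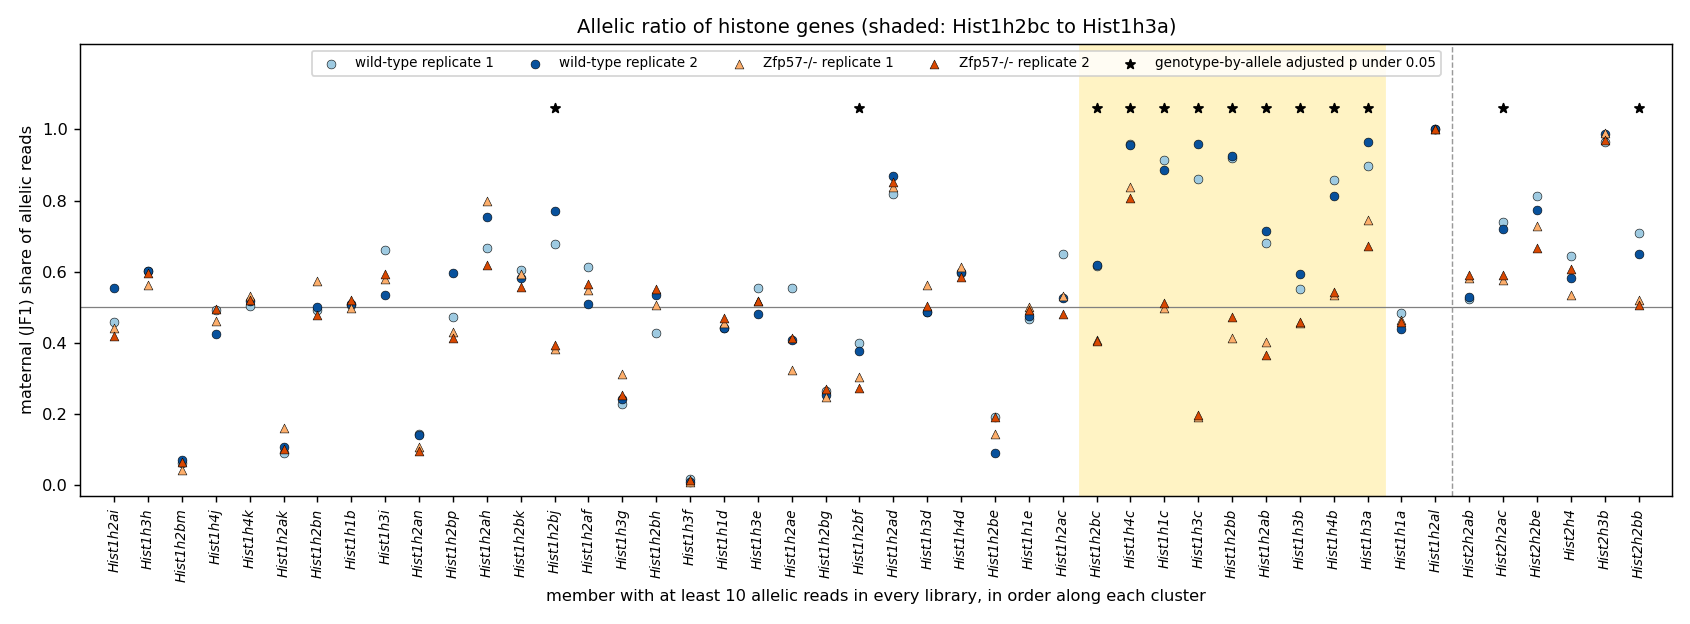
Maternal (JF1) share of the allelic reads of the histone genes that reached 10 allelic reads in each of the 4 libraries, in order along Hist1 and Hist2 (parted by the dashed line), with a point for each library and a star for each genotype-by-allele call. In the shaded stretch from Hist1h2bc to Hist1h3a, circles (wild-type) lie above triangles (Zfp57-/-) for all 9 genes, by 0.116 to 0.715 between the means.

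The calls were concentrated in a stretch of the Hist1 cluster from Hist1h2bc to Hist1h3a, at chr13:23684199-23762386 (mm10), which spans 78.2 kb and holds 11 members. This stretch was chosen after its values were seen, so that its counts are a description. The 9 members in it that could be tested were all called. Their mean maternal shares ranged from 0.573 to 0.956 in wild-type and from 0.195 to 0.822 in Zfp57-/- cells. The largest shift was that of Hist1h3c, an H3 gene, with maternal shares of 0.860 and 0.959 in the wild-type libraries and of 0.193 and 0.198 in the Zfp57-/- libraries. The pooled share was 0.937 (95% Wilson interval 0.908 to 0.957) in wild-type and 0.195 (0.175 to 0.218) in Zfp57-/- cells, and the preferred allele was thus the opposite one.

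A shift from mostly maternal to near equal shares was found for the linker histone gene Hist1h1c, at 0.915 and 0.886 in the wild-type libraries against 0.499 and 0.512 in Zfp57-/- cells. Hist1h2bb, an H2B gene, went from 0.921 and 0.925 to 0.415 and 0.471, and the H4 gene Hist1h4b from 0.857 and 0.813 to 0.534 and 0.543. In these genes the replicates of a genotype were within 0.06 of each other. Hist1h3a was at 0.898 and 0.965 against 0.744 and 0.673, and Hist1h4c, an H4 gene, at 0.958 and 0.955 against 0.839 and 0.806, so that these genes stayed mostly maternal in both genotypes. Smaller wild-type shares were measured for Hist1h2ab (0.682 and 0.715 against 0.403 and 0.367), Hist1h2bc (0.617 and 0.618 against 0.407 and 0.404) and Hist1h3b (0.552 and 0.593 against 0.455 and 0.457).

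Among the allelic reads, the difference lay in those given to the paternal allele. Of the 9 genes, 8 had a higher paternal level in Zfp57-/- cells, and none had a call for the maternal level. Over all genes the paternal allele was called higher for 15.7% and lower for 15.5%, and the maternal allele higher for 10.7% and lower for 18.2%. In raw reads, Hist1h3c had 12 and 12 paternal reads in wild-type and 507 and 560 in Zfp57-/- libraries, beside 74 and 284 maternal reads in wild-type and 121 and 138 in Zfp57-/- libraries. Its paternal level rose by 5.41 ± 0.29 (SE) on the log2 scale (edgeR adjusted p = 2.7e-07), while the maternal value was -0.44 ± 0.38 (edgeR adjusted p = 0.43).

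Hist1h1c had 100 and 257 paternal reads in wild-type and 1100 and 1333 in Zfp57-/- libraries (log2 2.77 ± 0.31, edgeR adjusted p = 4.3e-05), beside 1080 and 2000 against 1094 and 1396 maternal reads. For Hist1h4c the paternal reads were 52 and 133 against 618 and 646 (log2 2.77 ± 0.30), and for Hist1h2bb 30 and 58 against 773 and 632 (log2 3.98 ± 0.28). In all of them both Zfp57-/- libraries exceeded both wild-type libraries by several times, far beyond the gap between the wild-type replicates. For Hist1h2bb the bulk counts did not rise with the paternal reads (log2 0.07 ± 0.23), and the part of alignment was not tested. Hist1h3a rose from 13 and 12 to 126 and 179 paternal reads (log2 3.54 ± 0.34), and Hist1h4b from 38 and 154 to 563 and 594 (log2 2.61 ± 0.38). The paternal level of Hist1h3b alone missed the threshold (log2 0.82 ± 0.29, edgeR adjusted p = 0.054). Of the 8 members that were higher in the bulk comparison, 3 lay in this stretch of 11 members, namely Hist1h1t, Hist1h3c and Hist1h3a. Hist1h1t is among them only as a description, since it passed the count filter through the Zfp57-/- libraries alone. Of all genes tested, 13% were called higher. The bulk and allelic counts come from the same libraries and are not independent.

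**Figure D5:**
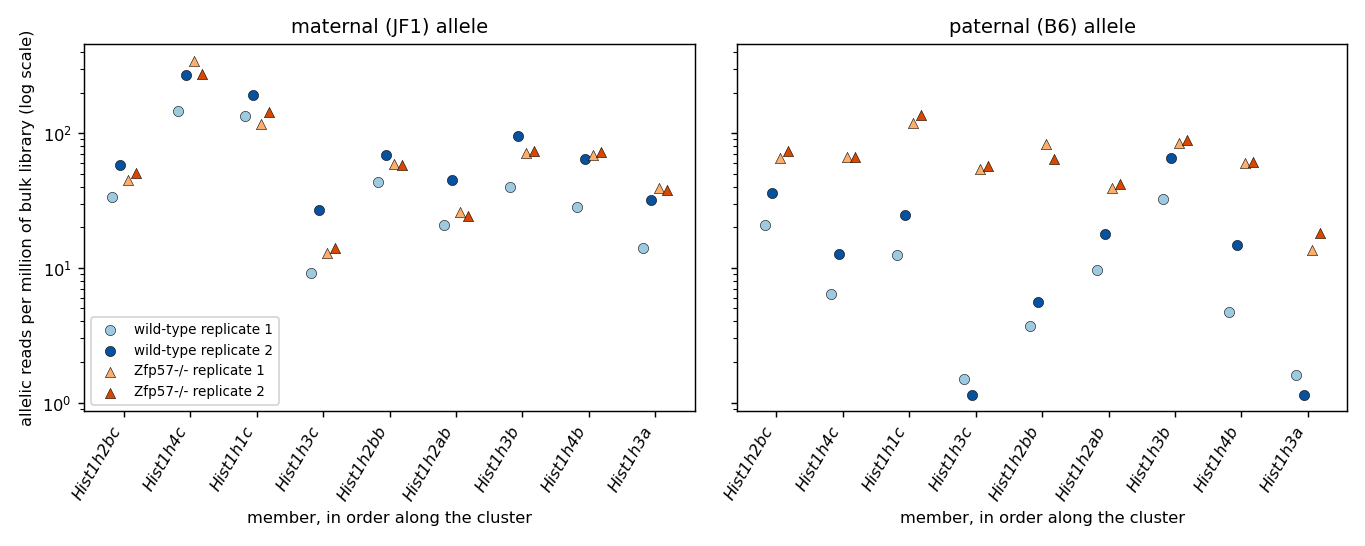
Allelic reads in CPM of the bulk library, on a log axis, for the maternal (left) and the paternal (right) allele of the 9 genes from Hist1h2bc to Hist1h3a. Maternal points of the genotypes overlap or lie close, whereas the paternal points of the Zfp57-/- libraries (triangles) lie above both wild-type points for every gene.

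Within the stretch, Hist1h1t and Hist1h4a had too few allelic reads in wild-type cells to be tested. Hist1h1t had 1 and 1 maternal and 0 and 0 paternal reads in wild-type, and 9 and 14 maternal and 10 and 14 paternal reads in Zfp57-/- libraries, so that both alleles were transcribed there. The genes that flank the stretch were not called. Hist1h2ac, the partner of Hist1h2bc at a distance of 250 bases between starts, had maternal shares of 0.650 and 0.525 in wild-type and of 0.533 and 0.481 in Zfp57-/- cells (edgeR adjusted p = 0.68). These ranges overlapped, and the wide gap between the wild-type replicates leaves room for a small shift in the same direction. Hist1h1a on the other side, with over 1000 allelic reads in each library, was at 0.484 and 0.440 against 0.465 and 0.460 (edgeR adjusted p = 0.91). Of the 16 other tested members of the same 233 kb run of histone genes only Hist1h2bf was called.

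Outside the stretch 4 of 38 tested members were called. Hist1h2bj, in a group of 5 members at chr13:22035164-22043676, had maternal shares of 0.677 and 0.771 in the wild-type libraries against 0.384 and 0.393 in Zfp57-/- cells. Its paternal reads were 40 and 75 against 337 and 431, so that the paternal level rose (log2 2.71 ± 0.26, edgeR adjusted p = 1.3e-05), and the maternal value was 0.55 ± 0.32. Hist2h2ac was at 0.740 and 0.720 against 0.577 and 0.591, and Hist2h2bb, in the same cluster, at 0.708 and 0.651 against 0.521 and 0.505. In both the replicates of a genotype were closer to each other than to the other genotype. Hist1h2bf, at 0.399 and 0.378 against 0.303 and 0.274, was called but lost in 3 of 7 alternatives, each of which left out a library, while the other 12 calls held in all 7. Over all members, the paternal level was called higher for 14 and lower for 0, and the maternal level higher for 2 (Hist1h3i and Hist1h1a) and lower for 0.

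Other histone genes had an extreme but stable share in both genotypes. Hist1h3f was almost wholly paternal, with 5, 8, 8 and 13 maternal reads among 308, 1024, 1083 and 889 allelic reads. Below 0.15 in both genotypes were also Hist1h2bm (10 of 162 and 30 of 427 maternal reads in wild-type, 15 of 345 and 23 of 350 in Zfp57-/- libraries), Hist1h2ak and Hist1h2an. Hist1h2al, the processed pseudogene, which lies by itself at chr13:51202727-51203065, had 91, 300, 135 and 119 maternal reads and 0 paternal reads in every library, and Hist2h3b had maternal shares of 0.965, 0.988, 0.989 and 0.969. The highest and lowest shares were thus shared by the genotypes, and differences between the strains in sequence, mapping and transcription cannot be told apart in this design with 1 direction of the cross.

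Neighbouring genes that are not histone genes were mostly near equal between alleles. Within 1000 kb of Hist1 members, 17 genes had a median maternal share of 0.508 in wild-type cells against 0.497 without Zfp57, and 2 of them were called. Zkscan3, a zinc finger gene, shifted in the same direction as the stretch, from 0.672 and 0.699 to 0.447 and 0.408, and Tdp2, a DNA repair gene, in the opposite one, from 0.393 and 0.386 to 0.502 and 0.491. None of the 17 lay between Gm46404, which ends at chr13:23445935, and Carmil1, which starts at chr13:24012344, so that they say little of the stretch itself. Near Hist2 there were 2 calls among 38 genes. Txnip shifted from 0.744 and 0.720 to 0.413 and 0.475, in the same direction as Hist2h2ac and Hist2h2bb. Mllt11 shifted in the opposite one, from 0.537 and 0.452 to 0.756 and 0.542. Near Hist3 there were 0 calls among 11 genes. In the rest of chromosome 13, 33 of 412 genes (8%) were called, and in the rest of chromosome 3, 71 of 602 (11.8%).

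Unique alignment limits what the counts of this family can show. In the transcripts of GENCODE vM21, the median share of windows of the read length that matched no other locus was 72.1%, with 14 members wholly unique, 22 members under 50% and Hist2h2aa2 without any unique window. Hist1h2bq and Hist1h2br shared an identical transcript among their 3 annotated transcripts each. Among members with at least 50% unique windows 9 of 47 were called in the bulk comparison, and among those below it 1 of 20. Since reads that align equally well to several copies were dropped, the level of a member with few unique windows is an underestimate, and a B6 or JF1 difference can decide which copy a read fits.

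The allelic counts, which were aligned end to end to a masked genome, moved apart from the bulk counts for some of these genes. Allelic reads per bulk count were 0.490 and 0.516 in the wild-type libraries against 1.07 and 1.03 in Zfp57-/- cells for Hist1h2bb, and 0.691 and 0.688 against 0.989 and 1.00 for Hist1h4b. For Hist1h1c they were 0.539 and 0.519 against 0.557 and 0.605 and for Hist1h4c 0.761 and 0.768 against 0.774 and 0.777, which were close between genotypes. In 4 members (Hist1h4k, Hist1h2af, Hist1h1d and Hist1h2ad) allelic reads outnumbered bulk counts in all libraries. When the reads of both alleles were summed and compared between genotypes in place of the bulk counts, an alternative chosen after seeing the data, 13 of 57 members were called, all higher, against 26.6% of all genes. Hist1h2bb then had a log2 fold change of 1.12 in place of 0.07, while Hist1h2bn went the other way, as given above. The part of alignment in the allelic differences was not tested.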

How the data were processed

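Reads were trimmed by the authors (Trimmomatic 0.36) and mapped with STAR 2.5.4a to GRCm38. The authors kept unique alignments with at most 3 mismatches, and deposited raw counts of fragments per gene of GENCODE vM20 from featureCounts (Subread 1.6.0, reverse stranded). For the allelic counts they aligned reads end to end to a genome masked at strain differences and split them with SNPsplit. Both tables are without normalization.

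Here, identifiers were mapped to symbols with GENCODE vM21. The members and gene lists were chosen with earlier results of these data known. Genes with more than 8 counts over the 4 libraries were compared with edgeR 4.0.16 in R 4.3.3 (TMM scaling, robust quasi-likelihood test, genotype only, Benjamini-Hochberg threshold 0.05). Allele counts were fitted with edgeR with terms for the library and for the allele within each genotype, for autosomal genes with at least 10 allelic reads in both wild-type libraries, and each allele was compared between genotypes in a second fit. Shares carry 95% Wilson intervals, which cover counting error only, and a gene at 0 counts is given against 3 counts per library. The tests were checked on simulated data with known changes.

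Named are the 3 highest members per class by level, up to 6 per direction by adjusted p, all tested H1 and non-Hist1 members, the germ line and polyadenylated members, pairs that differ in call, allelic calls, and up to 4 genes of each related list. Hist1h2ac, Hist1h4a, Hist1h4n, Hist1h3f, Hist1h2bm, Hist1h2an, Hist1h2af, Hist1h2ad, the neighbours, and Slbp were named after their values were seen. Alternatives were DESeq2 1.42.0, DESeq2 size factors, upper-quartile and Actb scaling, a gene-length correction, other filters, a replicate block and each library left out.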

Additional observations from a re-analysis of the deposited data

Results flagged for a closer look

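For 13 histone genes the difference between genotypes was not the same on the 2 alleles, by edgeR's genotype-by-allele test with an adjusted p under 0.05. The value given is the change of the log2 ratio of maternal over paternal reads from wild-type to Zfp57-/- cells, and it was negative for each. In the stretch from Hist1h2bc to Hist1h3a it was -5.90 for Hist1h3c, -3.93 for Hist1h2bb, -3.10 for Hist1h1c, -2.85 for Hist1h3a, -2.22 for Hist1h4c, -2.02 for Hist1h4b, -1.92 for Hist1h2ab, -1.24 for Hist1h2bc and -0.71 for Hist1h3b. Elsewhere it was -2.17 for Hist1h2bj, -0.94 for Hist2h2bb, -0.91 for Hist2h2ac and -0.63 for Hist1h2bf. Groups of 2 libraries are too small to search for a sample far from the others.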

How the results depend on the processing

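The 10 calls among histone genes became 3 (2 higher, 1 lower) scaled to Actb (median of all genes -0.68), 24 without the count filter, and 9 to 58 when a library was left out. The gene-length correction gave 6 higher and 6 lower in place of 8 and 2, beside 31.2% of all genes called. Same-numbered replicates deviated together with r = 0.149 over all genes and -0.061 over histone genes, which with 2 pairs does not show a pairing. A replicate block gave 36 calls (32 higher, 4 lower), beside 34.9% of all genes, and 13 allelic calls, beside 14.2% of all genes. The 21 calls in the related lists became 1 with Actb, 35 with the gene-length correction, 34 with the block and, when a library was left out, 10 without either Zfp57-/- replicate and 38 and 53 without wild-type replicate 1 and 2. Summed histone RNA, at 0.51 on the log2 scale, became -0.094 with Actb and 0.03 to 1.00 when a library was left out. With a library left out, the sign turned for Hist1h2bl (-0.42 to 0.75), Hist1h2ak (-0.36 to 0.86) and Hist1h3b (-0.32 to 0.83), whose lowest values came without wild-type replicate 1 and highest without wild-type replicate 2, and for Hist1h1e (-0.40 and 0.36 in these fits), and it turned for Hist1h2bb (-0.53) with the gene-length correction. Allelic calls ranged from 12 to 16 over 7 alternatives. Of the values under all alternatives 592 kept their direction and their side of the threshold, 33 counts or sums moved, 68 values passed it newly and 19 lost it. The causes were not tested. With 2 libraries per genotype, a rise of summed histone RNA cannot be told apart from the gap between the wild-type replicates.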
